A study of Mus musculus with 24 samples.

Results

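The genes encoding the proteins of the mitochondrial ribosome were followed through Nutm1 KO and WT mouse male germ cells at 2 stages. Members were all genes whose symbol in the probe annotation begins with Mrpl or Mrps followed by a digit. The array carried 132 probes for 76 such genes, and 71 of them were measured, out of 12705 genes and unnamed probes tested. By the known composition of the ribosome, the measured members made up 46 proteins of the large subunit and 25 of the small subunit. Mrps30 and Mrps18a are named for the small subunit but belong to the large one, and were counted there. The remaining 5 members, Mrpl57, Mrps14, Mrpl45, Mrpl32 and Mrpl19, were not above background on any array.

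RNA was taken from testes of adult male mice of mixed B6/129sv background, after cells had been separated by sedimentation. The groups were KO round spermatids, WT round spermatids, KO spermatocytes and WT spermatocytes. The KO animals carried a Nutm1 knockout, and the form of the allele is not given in the sources used here. Each genotype had 3 separate fractionations, each pooling testes of 3 KO mice or 2 WT mice, and both stages of a genotype came from the same fractionations. These gave 3 direct arrays per group. A further 3 arrays per group carried RNA mixed from pairs of these samples. They were normalized together with the direct arrays, and otherwise served only as an alternative to them. Nutm1 encodes a testis protein that binds the acetyltransferase p300, and the study asked how its loss changes transcripts in these cells.

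Mitochondrial ribosomes translate the few proteins that are still encoded by mitochondrial DNA, all of them subunits of the respiratory chain and the ATP synthase. Their own proteins are encoded in the nucleus, made in the cytosol and imported, so that both subunits depend on many separate nuclear genes. Some of these proteins have bacterial homologs and others are found only in mitochondrial ribosomes. During spermatogenesis mitochondria change shape, and after meiosis part of them is discarded with the residual cytoplasm while the rest is arranged around the flagellum.

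The sequences shown are the 150 bases before the start of transcription of the 4 members called (adjusted p under 0.05) between KO and WT round spermatids, Mrpl30, Mrps21, Mrpl50 and Mrpl49, and of a member that fell and one that rose between the stages in both genotypes, Mrpl27 and Mrps12. They are given as transcribed, 5′ to 3′, from RefSeq (GRCm38.p6). Capitals mark a binding sequence of NRF1 or of ETS factors such as GABP, regulators known from nuclear genes of mitochondrial function.
Mrpl30, chr1:37890327-37890476, plus strand: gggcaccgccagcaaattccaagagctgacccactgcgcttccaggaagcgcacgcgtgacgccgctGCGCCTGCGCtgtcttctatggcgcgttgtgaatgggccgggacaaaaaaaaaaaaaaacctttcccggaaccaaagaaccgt
Mrps21, chr3:95871515-95871664, minus strand: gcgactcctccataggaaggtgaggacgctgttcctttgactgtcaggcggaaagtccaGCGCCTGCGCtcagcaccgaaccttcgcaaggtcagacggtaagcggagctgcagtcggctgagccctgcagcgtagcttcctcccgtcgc
Mrpl50, chr4:49521084-49521233, minus strand: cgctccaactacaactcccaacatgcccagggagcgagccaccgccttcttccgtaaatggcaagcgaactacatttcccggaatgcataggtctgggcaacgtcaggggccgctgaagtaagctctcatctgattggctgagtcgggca
Mrpl49, chr19:6057756-6057905, minus strand: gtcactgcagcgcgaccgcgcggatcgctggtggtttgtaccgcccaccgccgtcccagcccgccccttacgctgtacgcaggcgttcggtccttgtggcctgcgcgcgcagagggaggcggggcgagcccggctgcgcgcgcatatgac
Mrpl27, chr11:94653641-94653790, plus strand: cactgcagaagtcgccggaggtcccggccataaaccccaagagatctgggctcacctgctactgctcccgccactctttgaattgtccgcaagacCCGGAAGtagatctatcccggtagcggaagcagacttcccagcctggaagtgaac
Mrps12, chr7:28741822-28741971, minus strand: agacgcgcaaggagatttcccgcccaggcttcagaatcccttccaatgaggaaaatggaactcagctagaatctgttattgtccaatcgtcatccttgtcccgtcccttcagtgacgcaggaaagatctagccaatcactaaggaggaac
The Mrpl30 and Mrps21 stretches each held the NRF1 sequence, at 83 and 91 bases before the start. The Mrpl27 stretch held the ETS sequence at 55 bases before the start. None of the searched sequences was found in the stretches of Mrpl50, Mrpl49 and Mrps12. The wider windows described below, which run from 250 bases before to 50 bases after the start, held some for these genes. They held the cAMP response sequence TGACGTCA for Mrpl49, the ETS sequence for Mrps12 and none for Mrpl50.

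Between 13849 and 16244 of 45281 probes were detected on a direct array at a detection p-value under 0.01, and 68 of the 71 members were detected on all 12. Signals are background-corrected, quantile-normalized intensities on the log2 scale. Nutm1 itself read 6.81, 6.75 and 7.03 in the KO spermatids against 8.52, 8.40 and 8.18 in the WT ones, and was called lower in KO (log2 difference -1.50, SE 0.24, limma adjusted p = 0.00156). In spermatocytes it was dim, at 5.51, 5.69 and 5.67 in KO and 5.76, 6.17 and 6.89 in WT, and was not called (log2 difference -0.65, SE 0.24, adjusted p = 0.546). Spermatid markers separated the stages, with means over 11 genes of 12.83 to 12.98 in KO round spermatids, 12.95 to 13.09 in WT round spermatids, 11.76 to 11.84 in KO spermatocytes and 11.46 to 12.44 in WT spermatocytes. Markers of meiotic cells did not: their means over 9 genes were 9.08 to 9.37 in KO round spermatids, 9.11 to 9.31 in WT round spermatids, 8.55 to 9.12 in KO spermatocytes and 8.91 to 9.12 in WT spermatocytes.

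The mixed arrays of KO spermatocytes stood apart most for these genes. A mixture should read between its sources, yet 63, 63 and 56 of the 71 members read below both source arrays on the 3 of them. Their member means were 9.13, 9.21 and 9.26, against 9.56 to 9.97 on the direct arrays of KO spermatocytes. Over all features the share below both sources on these arrays was 38.8%, 43.3% and 38.1%. The mixed arrays of WT spermatocytes had 49, 15 and 20 members below both sources (38.4%, 37.5% and 28.8% of all features). On the same 3 arrays 9, 37 and 15 members lay above both sources. Those of round spermatids had 27 to 35 members below both in KO (35% to 38.3% of all features). In WT they had 18 to 27 (30.7% to 35.4% of all features). The results that follow rest on the direct arrays, normalized together with the mixed ones. Any pair of mixed arrays in a group shares RNA of 1 fractionation, so they are not independent samples and tests over them understate the spread. With the mixed arrays in place of the direct ones, 0 members were higher and 57 lower in KO than in WT spermatocytes (22.2% and 24.9% of all features). Between the KO stages 30 members were then higher and 10 lower in round spermatids (35.8% and 31.6% of all features), and between KO and WT round spermatids 6 were higher and 9 lower (18.6% and 13.3% of all features).

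The members as a group were lower in round spermatids than in spermatocytes, in both genotypes. The mean log2 signal over the 71 members was 9.44, 9.41 and 9.53 on the KO round spermatid arrays and 9.48, 9.53 and 9.34 on the WT round spermatid arrays. It was 9.74, 9.97 and 9.56 on the KO spermatocyte arrays and 10.11, 10.03 and 9.83 on the WT spermatocyte arrays. All 6 round spermatid arrays lay below all 6 spermatocyte arrays, while KO and WT overlapped among the round spermatids. Among the spermatocytes they overlapped as well. The mean over all 12705 features was 8.32 ± 0.0031 in KO round spermatids, 8.31 ± 0.0232 in WT round spermatids, 8.28 ± 0.0173 in KO spermatocytes and 8.31 ± 0.0218 in WT spermatocytes (SD, n = 3 arrays each). Quantile normalization holds such means close together, so they do not measure total RNA.

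**Figure D1:**
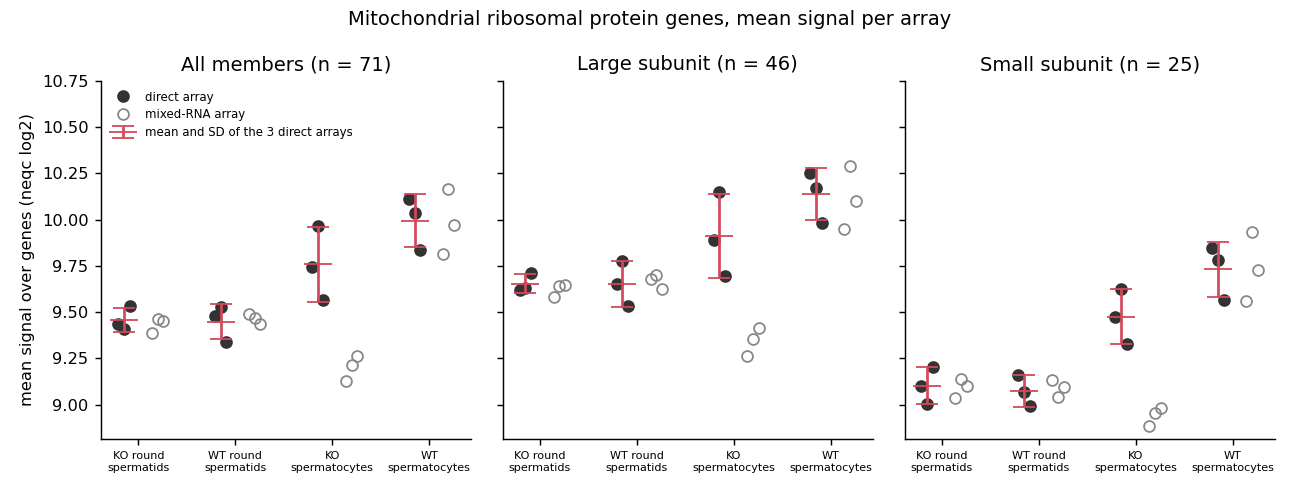
Mean log2 signal over the 71 measured members, the 46 large-subunit members and the 25 small-subunit members on each array, by group. Filled points are direct arrays, open points are arrays of mixed RNA, and bars give the mean and SD of the 3 direct arrays. The 71-gene means of the direct arrays run from 9.34 to 9.53 in round spermatids and from 9.56 to 10.11 in spermatocytes, and the mixed arrays of KO spermatocytes lie at 9.13 to 9.26.

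In WT cells, 46 of the 71 members differed between the stages, 40 lower and 6 higher in round spermatids than in spermatocytes (limma, adjusted p under 0.05). That is 56.3% of members lower, where 60.3% of all features differed, 31.9% lower and 28.4% higher. The median difference was -0.64 over members and -0.12 over all features. The arrays of the stages did not overlap for 42 members lower and 7 higher in WT round spermatids, where 67.7% of all features stood apart, 36.9% lower and 30.9% higher. In bulk samples like these, fewer cells of a type and less RNA per cell cannot be told apart.

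The falls covered both subunits. Of 46 large-subunit members 23 fell and 4 rose, with a median of -0.53, and of 25 small-subunit members 17 fell and 2 rose, with a median of -0.80. Of 43 members with a bacterial homolog 22 fell and 5 rose (median -0.55), and of 28 members found only in mitochondria 18 fell and 1 rose (median -0.81). The differences between these subgroups were not tested.

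Mrpl27, whose bacterial homolog reaches towards the peptidyl transferase centre, fell most among large-subunit members on the probes used. It read 8.03, 7.21 and 7.32 in WT round spermatids and 9.35, 9.64 and 9.09 in WT spermatocytes, with no overlap, and was 3.58-fold lower in round spermatids (log2 difference -1.84, SE 0.25, adjusted p = 7.5e-05). Mrpl50, found only in mitochondrial ribosomes, read 7.13, 6.80 and 6.66 in WT round spermatids and 8.37, 8.63 and 8.36 in WT spermatocytes, and was 3.01-fold lower (log2 difference -1.59, SE 0.17). The groups of this gene also stood apart. Mrpl53, another mitochondria-only protein, was 2.71-fold lower (log2 difference -1.44, SE 0.24), and Mrpl44, which resembles RNase III, was 2.62-fold lower (log2 difference -1.39, SE 0.19). Mrpl35, a homolog of bacterial L35, was not above background on any WT round spermatid array. Its mean signal was 5.34 there and 6.83 in WT spermatocytes, which makes it at least 2.06-fold lower in round spermatids (adjusted p = 0.000502), the dim side being set at the lowest signal detected on each array or the probe's own, whichever was higher. Mrpl38, a mitochondria-only protein, was 2.58-fold lower (log2 difference -1.37, SE 0.15) with its bright probe. A second Mrpl38 probe was detected on only 4 of the 12 direct arrays and bears little on this.

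Among small-subunit members the mitochondria-only protein Mrps23 fell most. It read 8.66, 8.45 and 8.40 in WT round spermatids and 10.35, 10.33 and 10.19 in WT spermatocytes, and was 3.45-fold lower (log2 difference -1.79, SE 0.18, adjusted p = 1.12e-05). The spread within each stage was small beside the gap between them. Mrps10, a homolog of bacterial S10, read 9.71, 9.24 and 9.28 in WT round spermatids and 11.25, 11.06 and 10.88 in WT spermatocytes, and was 3.15-fold lower (log2 difference -1.65, SE 0.21). Its arrays did not overlap either.

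The 6 members that rose came from both subunits. Mrpl30, a large-subunit protein with a bacterial homolog, read 10.10, 10.17 and 10.06 in WT round spermatids and 9.20, 8.90 and 8.95 in WT spermatocytes, and was 2.13-fold higher (log2 difference 1.09, SE 0.18, adjusted p = 0.000221). All 3 round spermatid arrays lay above all spermatocyte arrays. Mrps15, a homolog of bacterial S15, read 7.32, 7.37 and 7.36 in WT round spermatids and 6.82, 6.37 and 5.72 in WT spermatocytes, and was 2.07-fold higher (log2 difference 1.05, SE 0.23). The WT spermatocyte arrays of this gene spread widely without reaching the round spermatids. Mrpl20, known from bacteria as an early protein of large-subunit assembly, was 1.94-fold higher (log2 difference 0.96, SE 0.21). Mrpl39, found only in mitochondria, was 1.68-fold higher (log2 difference 0.75, SE 0.24). Mrps12, part of the decoding centre, read 10.81, 10.82 and 11.31 in WT round spermatids and 9.89, 10.59 and 10.34 in WT spermatocytes, and was 1.63-fold higher (log2 difference 0.71, SE 0.21). Mrpl18, known in human cells for binding 5S rRNA, was 1.54-fold higher (log2 difference 0.63, SE 0.24, adjusted p = 0.0393). The falls of Mrpl27, Mrpl50, Mrpl53, Mrpl44, Mrpl35, Mrpl38, Mrps23 and Mrps10 between the WT stages were called in all 16 alternative analyses, as was the rise of Mrpl30. The call of Mrpl18 was lost in 6 of them, that of Mrpl39 in 3, that of Mrps12 in 2 and those of Mrpl20 and Mrps15 in 1 each.

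**Figure D2:**
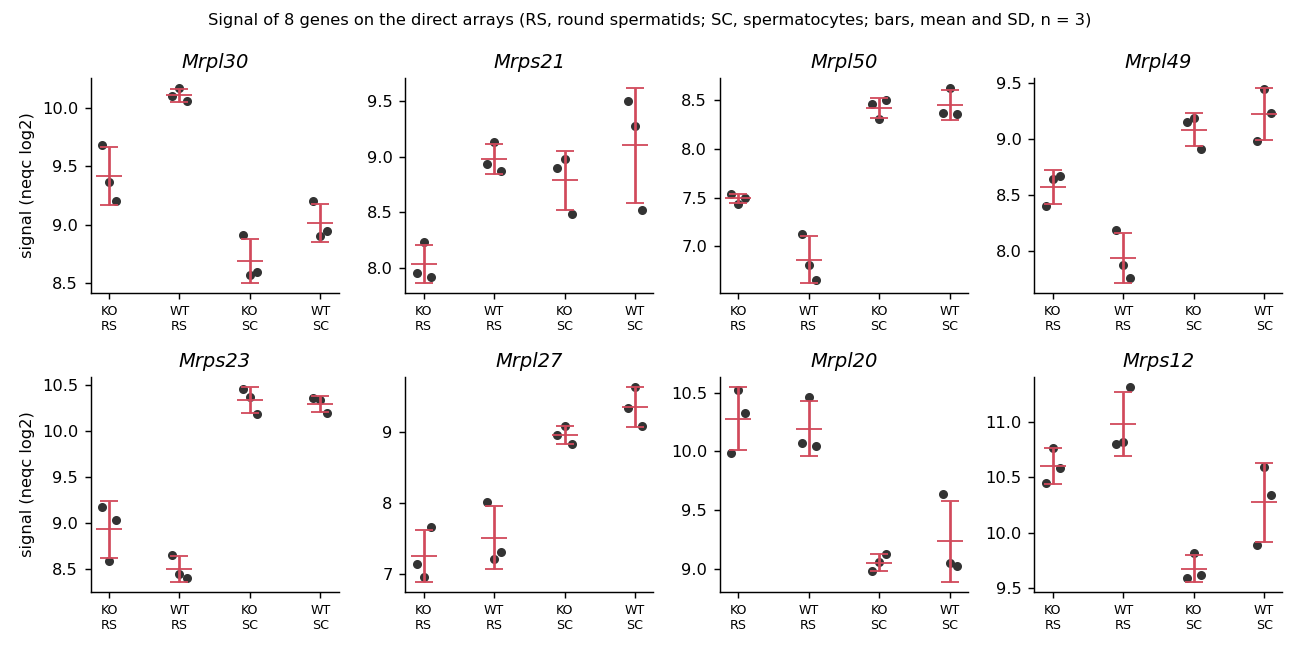
Log2 signal of 8 members on each direct array (points), with the mean and SD of the 3 arrays of a group (bars), each panel with its own axis. Mrpl30 and Mrps21 lie lower in KO than in WT round spermatids, Mrpl50 and Mrpl49 lie higher, Mrps23 and Mrpl27 lie lower in round spermatids than in spermatocytes of both genotypes, and Mrpl20 and Mrps12 lie higher there.

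In KO cells the stage difference ran the same way and reached fewer members. Of 71 members 25 were lower and 7 higher in KO round spermatids than in KO spermatocytes, where 50.4% of all features differed, 24% lower and 26.4% higher. The median was -0.33 over members and 0.01 over all features. The arrays stood apart for 31 members lower and 8 higher in KO round spermatids, where 57.9% of all features stood apart, 27.6% lower and 30.3% higher. Large-subunit members had 14 falls and 5 rises of 46 (median -0.28), and small-subunit members 11 falls and 2 rises of 25 (median -0.38). Members with a bacterial homolog had 13 falls and 6 rises of 43 (median -0.25), and mitochondria-only members 12 falls and 1 rise of 28 (median -0.41).

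Mrpl27 again fell most, at 7.15, 6.96 and 7.67 in KO round spermatids and 8.96, 9.09 and 8.84 in KO spermatocytes, 3.25-fold lower (log2 difference -1.70, SE 0.25, adjusted p = 0.000262). Mrps23 read 9.18, 8.59 and 9.04 in KO round spermatids and 10.45, 10.36 and 10.18 in KO spermatocytes, 2.64-fold lower (log2 difference -1.40, SE 0.18). Neither gene had overlapping arrays. Mrps25, a mitochondria-only small-subunit protein with a dim probe, was detected on 1 of 3 KO round spermatid arrays and on all 3 KO spermatocyte arrays (log2 difference -1.36, SE 0.22). A second Mrps25 probe gave -1.18 and another 0.11. Mrpl35 had a difference of -1.19 (SE 0.27) and Mrpl53 one of -1.13 (SE 0.24). Mrps10 differed by -0.98 (SE 0.21), Mrpl44 by -0.94 (SE 0.19) and Mrpl50 by -0.93 (SE 0.17), all of them called.

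The KO rises were led by Mrpl20, at 9.99, 10.52 and 10.33 in KO round spermatids and 8.98, 9.06 and 9.13 in KO spermatocytes, 2.34-fold higher (log2 difference 1.22, SE 0.21, adjusted p = 0.000662). Mrpl22, whose bacterial homolog lines the exit tunnel, read 9.97, 10.83 and 10.30 in KO round spermatids and 9.24, 9.72 and 8.94 in KO spermatocytes, 2.10-fold higher (log2 difference 1.07, SE 0.41, adjusted p = 0.0446). Its arrays did not overlap but spread widely, and its call was lost in 7 of 16 alternative analyses. The other called rises were Mrpl39 (log2 difference 0.99), Mrps12 (0.92), Mrpl18 (0.83), Mrps15 (0.74) and Mrpl30 (0.73). These 5 were also called higher between the WT stages.

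Members called between the KO stages were mostly called between the WT stages too, and the matching overlap over all features was not counted. Of the 25 members called lower in KO and the 40 called lower in WT, 24 were the same genes, and of the 7 called higher in KO and the 6 called higher in WT, 6 were. A further 16 were called lower in WT alone, 1 was called lower and 1 higher in KO alone, and 0 were called in opposite directions. Fitted differences had the same sign in 51 members below 0 and 13 above 0. The correlation of the KO and WT stage differences was 0.88 (Pearson) and 0.83 (Spearman) across 71 genes, which are not independent replicates, against 0.88 and 0.88 across all 12705 features. Of the 24 members called lower in both, 22 had the smaller fitted fall in KO. The same count over all features called lower in both was not made. The KO stage difference lay above the WT one in 51 of 71 members and in 7273 of 12705 features. The test of the difference between the genotypes' stage differences called no member.

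**Figure D3:**
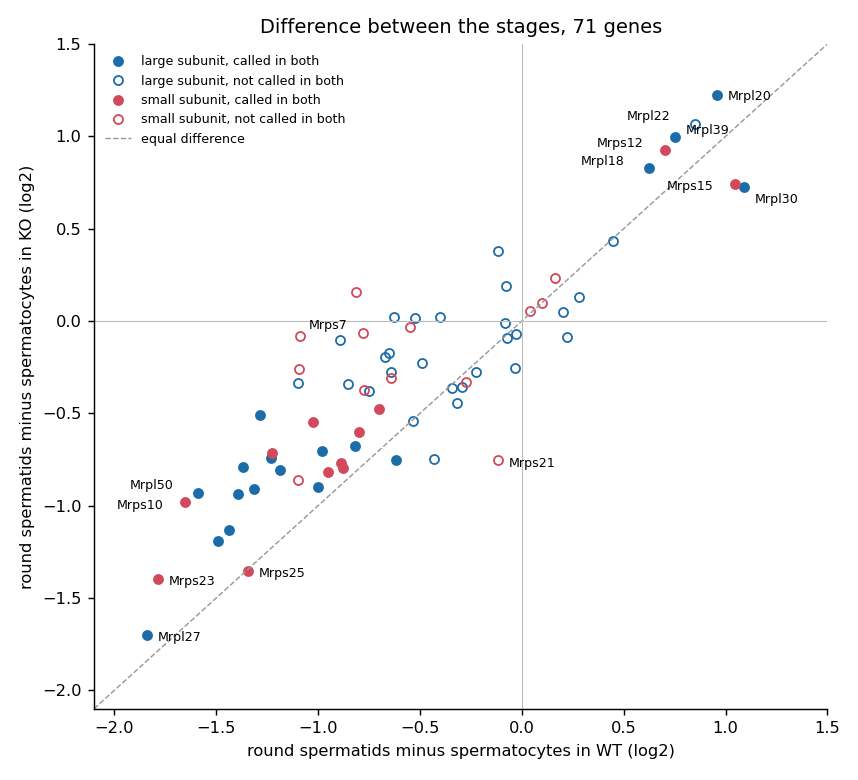
Difference between the stages of each of the 71 members in WT (x axis) and in KO (y axis), as log2 of round spermatids over spermatocytes. Blue is the large and red the small subunit, filled points were called in both genotypes, and the dashed line marks equal differences. Of the 24 members called lower in both, 22 lie above the line, and Mrps21 stands below it at -0.12 in WT and -0.75 in KO. The matching count over all features was not made.

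Some marker genes of other testis cells moved with the stages. Of 7 Leydig cell genes the 4 measured (Star, Cyp11a1, Cyp17a1 and Insl3) averaged 6.15 to 8.13 in KO round spermatids, 5.96 to 7.62 in WT round spermatids, 7.90 to 12.01 in KO spermatocytes and 9.98 to 11 in WT spermatocytes. All 4 were called lower in WT round spermatids than in WT spermatocytes, and 2 of them between the KO stages. The 8 of 10 macrophage genes measured ran the other way, at 7.35 to 8.32 in KO round spermatids, 7.11 to 7.57 in WT round spermatids, 5.70 to 6.62 in KO spermatocytes and 5.79 to 6.17 in WT spermatocytes. So did 7 of 11 Sertoli cell genes, at 7.27 to 8.30 in KO round spermatids, 7.98 to 8.53 in WT round spermatids, 6.56 to 7.19 in KO spermatocytes and 7.10 to 7.54 in WT spermatocytes. The single erythroid gene measured of 4 averaged 8.19 in KO round spermatids, 9.33 in WT round spermatids, 5.45 in KO spermatocytes and 5.65 in WT spermatocytes. The part of these cells in the stage differences was not tested. On the KO spermatocyte arrays the Leydig means were 12.01, 7.90 and 9.93, and the member means 9.74, 9.97 and 9.56. In WT spermatocytes the array with the lowest Leydig mean, 9.98, also had the lowest member mean, 9.83. That array had the highest spermatid marker mean of its group as well, 12.44, against 11.46 and 11.67 on the other WT spermatocyte arrays. On KO spermatocyte arrays 1, 2 and 3 the spermatid marker means were 11.84, 11.76 and 11.77. The WT arrays with Leydig means of 10.27 and 11 had member means of 10.11 and 10.03. The relation of Leydig or spermatid marker means to member means was not tested. Without the KO spermatocyte array of lowest Leydig mean 17 members were lower and 8 higher in KO round spermatids. Without that of highest Leydig mean 21 were lower and 7 higher. Over the 6 fits that each left out 1 array of these groups, the count lower ran from 17 to 29. The shares of all features called in these fits are not given here. The part of Leydig cells in the counts was not tested.

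Between KO and WT round spermatids 4 of the 71 members differed, 2 higher and 2 lower in KO, where 14.9% of all features were called, 6.89% higher and 7.99% lower. The median difference was 0.05 over members and 0.12 over all features. The arrays stood apart for 15 members higher and 12 lower in KO, where 43.4% of all features stood apart, 26.1% higher and 17.3% lower. Large-subunit members had 2 called higher and 1 lower of 46, and small-subunit members 1 called lower of 25. At an unadjusted p under 0.05 there were 17 of 71 members, against 4087 of 12705 features.

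Mrps21, a small-subunit protein related to bacterial S21, read 7.96, 8.23 and 7.92 in KO round spermatids, against 8.93, 9.13 and 8.87 in WT round spermatids. The KO arrays all lay below the WT arrays, and the gene was 1.92-fold lower in KO (log2 difference -0.94, SE 0.24, limma adjusted p = 0.0234). In spermatocytes it read 8.90, 8.98 and 8.49 in KO and 9.50, 9.27 and 8.52 in WT, which overlapped. In KO it was also called lower in round spermatids than in spermatocytes (log2 difference -0.75, SE 0.24, adjusted p = 0.0221), and in WT that difference was -0.12 (SE 0.24, adjusted p = 0.688). The difference between those 2 values was -0.63 (SE 0.34, adjusted p = 0.424).

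Mrpl30 read 9.69, 9.37 and 9.20 in KO round spermatids, against 10.10, 10.17 and 10.06 in WT round spermatids. It was 1.61-fold lower in KO, again without overlap (log2 difference -0.69, SE 0.18, adjusted p = 0.0221). In spermatocytes it read 8.91, 8.57 and 8.60 in KO and 9.20, 8.90 and 8.95 in WT (log2 difference -0.32, SE 0.18, adjusted p = 0.803). Mrpl30 was higher in round spermatids than in spermatocytes of both genotypes, and within round spermatids it was lower in KO.

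Mrpl50 went the opposite way. It read 7.54, 7.44 and 7.50 in KO round spermatids, against 7.13, 6.80 and 6.66 in WT round spermatids, and was 1.55-fold higher in KO (log2 difference 0.63, SE 0.17, adjusted p = 0.0256). In spermatocytes, with 8.46, 8.31 and 8.50 in KO and 8.37, 8.63 and 8.36 in WT, the difference was -0.03 (SE 0.17). Mrpl49, a mitochondria-only large-subunit protein, read 8.40, 8.65 and 8.67 in KO round spermatids, against 8.19, 7.87 and 7.75 in WT round spermatids (log2 difference 0.63, SE 0.18, adjusted p = 0.0375). Its arrays stood apart on this probe. The other 3 Mrpl49 probes, detected on 8, 6 and 4 of the 12 direct arrays, gave -0.64, -0.02 and -0.67, and with the mean of all probes the difference was -0.17 (adjusted p = 0.551). The Mrpl49 call was lost in 7 of 16 alternative analyses and its sign turned in 1. Mrpl3, whose bacterial homolog is L3, was not called on the probe used (log2 difference 0.56, SE 0.23). A second Mrpl3 probe, detected on all 12 direct arrays, gave 0.83 (SE 0.20, adjusted p = 0.0168 in the fit over all probes).

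The adjusted p of the 4 called members lay between 0.0221 and 0.0375. Mrpl50 and Mrpl49 were the nearest inside it, and Mrps7 (log2 difference 0.55, SE 0.17, adjusted p = 0.0537) and Mrpl28 (0.55, SE 0.18, adjusted p = 0.0547) the nearest outside. Mrps7, a homolog of bacterial S7, read 9.41, 9.53 and 9.74 in KO round spermatids, against 9.19, 8.90 and 8.95 in WT round spermatids, without overlap. Leaving out 1 round spermatid array at a time gave 0 to 5 called members. With KO array 3, WT array 2 or WT array 3 left out no member was called, and with KO array 1 or KO array 2 left out 1 was.

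**Figure D4:**
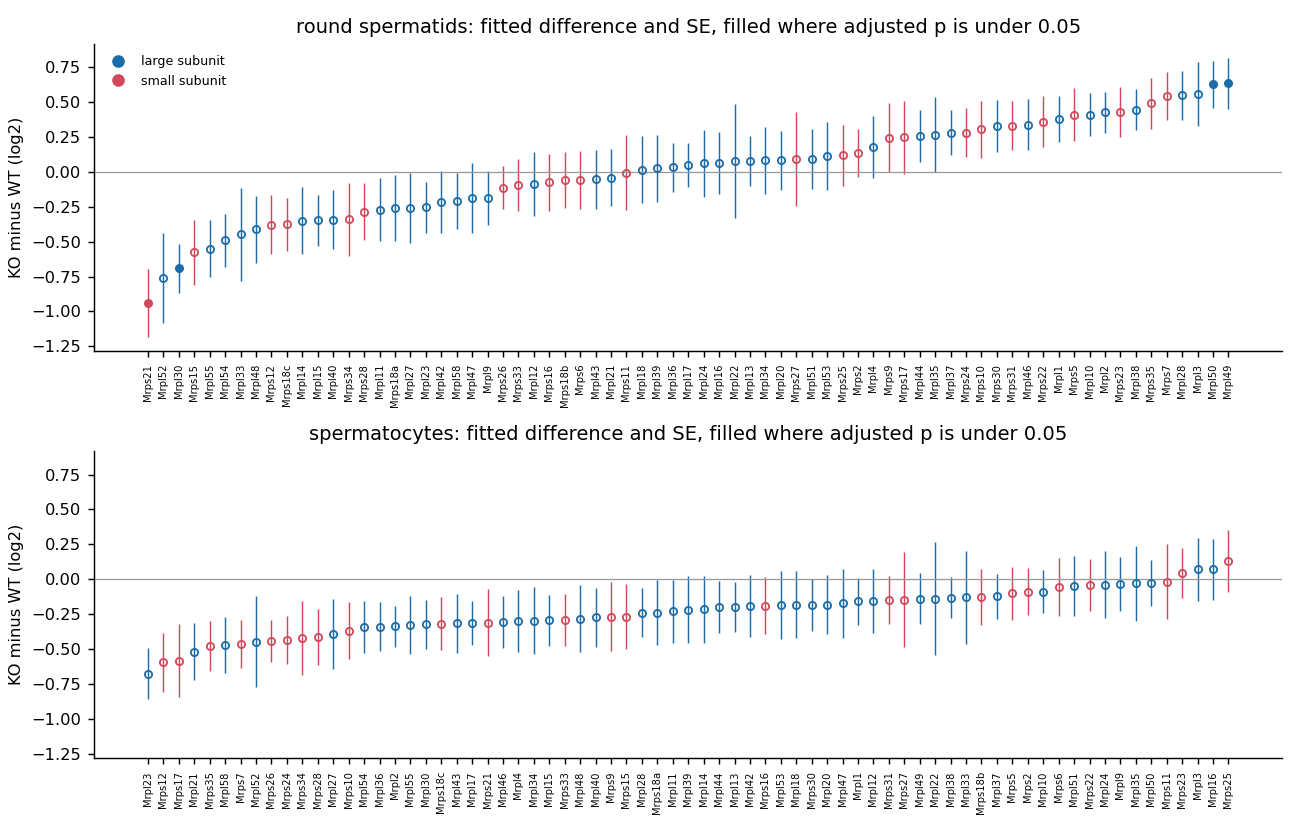
KO minus WT difference of each of the 71 members in round spermatids (top) and in spermatocytes (bottom), sorted by size, with the standard error of the fit. Blue is the large and red the small subunit, and filled points were called. The 4 filled points in round spermatids are Mrps21, Mrpl30, Mrpl50 and Mrpl49, and 67 of 71 points lie below 0 in spermatocytes with none called.

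Between KO and WT spermatocytes no member was called by limma, where 0.834% of all features were (0.189% higher, 0.645% lower). An unadjusted p under 0.05 was found for 10 of 71 members and for 876 of 12705 features. The fitted difference was below 0 in 67 of 71 members, and in 6355 of 12705 features. The median was -0.22 over members and -0.00 over all features. The arrays stood apart for 9 members lower in KO and for 0 higher, where 9.20% of all features stood apart, 5.30% lower and 3.90% higher. Mrpl23, whose bacterial homolog sits at the tunnel exit, had the smallest p: it read 8.88, 8.50 and 8.36 in KO spermatocytes and 9.28, 9.50 and 8.99 in WT spermatocytes (log2 difference -0.68, SE 0.18, adjusted p = 0.194). Fitted differences below 0 were also found in 50 of 52 cytosolic ribosomal protein genes and in 60 of 65 genes of the respiratory chain and ATP synthase. Sertoli markers were below 0 in 7 of 7 genes (median -0.37, arrays apart for 3, unadjusted p under 0.05 for 2, none called), with means of 6.56 to 7.19 in KO and 7.10 to 7.54 in WT spermatocytes. Leydig markers were below 0 in 4 of 4 (median -0.46, arrays apart for 0), with means of 7.90 to 12.01 in KO and 9.98 to 11 in WT. Spermatocyte markers were below 0 in 8 of 9 (median -0.18, arrays apart for 1). The part of these cells in the differences was not tested.

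The effect of the KO was not shown to differ between the stages for any member, where 1.49% of all features were called. An unadjusted p under 0.05 was found for 13 of 71 members and for 1895 of 12705 features. Mrps7 had the smallest p, with a difference between the stages' KO effects of 1.01 (SE 0.25, adjusted p = 0.0678). It read 9.60, 9.82 and 9.51 in KO spermatocytes and 9.89, 10.16 and 10.27 in WT spermatocytes, so KO lay above WT in round spermatids and below it in spermatocytes. Mrps35, a mitochondria-only small-subunit protein, came next with 0.97 (SE 0.26, adjusted p = 0.0925). It read 8.05, 8.09 and 8.32 in KO round spermatids, against 7.76, 7.52 and 7.71 in WT round spermatids. In spermatocytes it read 7.73, 8.33 and 7.93 in KO and 8.52, 8.35 and 8.55 in WT, so the groups stood apart at both stages, in opposite directions. Mrpl2, a homolog of bacterial L2 near the peptidyl transferase centre, had 0.76 (SE 0.21, adjusted p = 0.104). The median over members was 0.24, and 0.09 over all features.

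Most members rested on a single probe, and 23 had several that passed the detection filter. Among the 14 of these called between the WT stages, all other probes had the same sign in 10 and at least 1 had the opposite sign in 4, Mrpl38, Mrpl49, Mrpl51 and Mrps25. The probes of opposite sign were dim, detected on 4 of the 12 direct arrays for Mrpl38, Mrpl49 and Mrps25 and on 9 for Mrpl51. For Mrpl51, a mitochondria-only large-subunit protein, the probe used gave -0.82, a second -1.05 and another 0.47 between the WT stages. That second probe was dim too, detected on 7 arrays with a mean signal of 5.72, against 5.85 for the probe of opposite sign. Between the KO stages the probe used gave -0.68 and the probe of opposite sign 0.75 (adjusted p = 0.0232 in the fit over all probes). The second probe was lower there (adjusted p = 0.00997 in that fit), so the Mrpl51 probes were called in both directions. Between the WT stages another probe of the same gene also passed the test in 10 of the 14. Some members not called between the WT stages had other probes that passed in the fit over all probes. A second Mrpl9 probe, detected on all 12 direct arrays, gave -2.01 (limma adjusted p = 1.18e-05) against 0.20 on the probe used. A dim Mrpl47 probe, detected on 9, gave 2.03 against 0.45, and 3 of 4 other Mrpl15 probes passed as lower. The dimmest members were Mrps27, Mrps25 and Mrpl35, detected on 9, 7 and 8 of the 12 direct arrays. The brightest probes were those of Mrpl38, Mrpl54 and Mrpl47. Mrpl54 read 12.07, 11.90 and 11.70 in KO round spermatids, against 12.34, 12.53 and 12.27 in WT round spermatids, without overlap (log2 difference -0.49, SE 0.19, adjusted p = 0.0952). Mean signal and stage difference in WT correlated at 0.058 (Pearson) and 0.099 (Spearman) across the 71 genes, both taken from the same arrays.

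The nuclear genes that build and serve the mitochondrial ribosome were set beside its proteins. For the counts in these lists, 31.9% of all features were lower and 28.4% higher in WT round spermatids than in WT spermatocytes. Between the KO stages the shares were 24% and 26.4%. Between KO and WT round spermatids 6.89% of all features were higher and 7.99% lower in KO. Of 15 translation factors 10 were measured, and between the WT stages 8 were lower and 1 higher in round spermatids (median -1.05). In KO 8 fell and 0 rose (median -0.95), and between KO and WT none was called at either stage. Mtif2, the initiation factor that brings the first tRNA, had stage differences of -1.75 (SE 0.20) in KO and -1.43 (SE 0.20) in WT. Gfm2, a recycling factor, had -1.27 (SE 0.16) in KO and -1.39 (SE 0.16) in WT. Mrrf, the other recycling factor, rose in WT (0.75, SE 0.19, adjusted p = 0.0041) and had 0.43 (SE 0.19, adjusted p = 0.0772) in KO. Of 3 measured ribosomal proteins with other symbols, Dap3, Ptcd3 and Chchd1, Dap3 and Chchd1 fell between the WT stages and Chchd1 fell between the KO stages.

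Of 25 assembly factors 19 were measured. In KO 10 fell and 3 rose between the stages (median -0.45), and in WT 12 fell and 2 rose (median -1.05). Rbfa, which binds the small subunit while it matures, read 10.77, 11.16 and 10.94 in KO round spermatids, against 9.08, 8.67 and 9.29 in WT round spermatids. Its groups were far apart, with a log2 difference of 1.94 (SE 0.22, adjusted p = 8.91e-05), larger than that of any member. In spermatocytes Rbfa read 10.53, 10.91 and 10.58 in KO and 9.75, 10.39 and 10.06 in WT, and the test between the stages' KO effects gave 1.33 (SE 0.31, adjusted p = 0.0583). Noa1, a GTPase of small-subunit assembly, was 0.85 higher (SE 0.24, adjusted p = 0.0348) in KO round spermatids on the log2 scale. Dhx30, an RNA helicase, was 0.66 higher (SE 0.18, adjusted p = 0.0273), and Mrm1, an rRNA methyltransferase, 0.76 higher (SE 0.24, adjusted p = 0.0493). These 4 were the called ones among the 19 (21.1%, against 14.9% of all features), and none was lower.

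Of 27 genes of mitochondrial DNA upkeep, transcription and RNA handling 24 were measured. In KO round spermatids 1 was higher and 2 lower (12.5% called, against 14.9% of all features). Tfam, which packs mitochondrial DNA and activates its transcription, read 12.07, 11.92 and 11.79 in KO round spermatids, against 13.39, 13.36 and 13.55 in WT round spermatids. The log2 difference was -1.51 (SE 0.24, adjusted p = 0.0015), without overlap. In mouse testis Tfam is known to have a separate transcript for a nuclear protein, and the probe was not assigned to either form here. Between the stages Tfam rose, by 1.24 (SE 0.24) in KO and 2.02 (SE 0.24) in WT on the log2 scale. Slirp, which protects mitochondrial mRNAs, was 0.78 lower in KO round spermatids (log2 difference -0.78, SE 0.23, adjusted p = 0.0428). Tbrg4, a regulator of mitochondrial mRNA, was higher (0.59, SE 0.18, adjusted p = 0.0454). Between the stages 9 of the 24 fell and 3 rose in KO, and 11 fell and 3 rose in WT.

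Of 20 mitochondrial tRNA synthetases 13 were measured. Aars2, which charges the alanine tRNA, read 7.73, 7.77 and 7.21 in KO round spermatids, against 8.81, 9.10 and 9.26 in WT round spermatids (log2 difference -1.49, SE 0.20, adjusted p = 0.000405). In spermatocytes its values of 7.22, 7.41 and 7.67 in KO and 7.53, 7.29 and 7.32 in WT overlapped. The KO effect on Aars2 differed between the stages (-1.54, SE 0.29, adjusted p = 0.0219). Of 7 measured regulators of mitochondrial biogenesis, including Nrf1, Gabpa and Ppargc1a, only Pprc1, a coactivator of the PGC-1 family, was called between KO and WT round spermatids (0.99, SE 0.25, adjusted p = 0.0225). Nrf1 fell between the WT stages (-1.0, SE 0.25, adjusted p = 0.0045) and had -0.39 (SE 0.25, adjusted p = 0.219) between the KO stages. Gabpb1, a subunit of GABP, rose by 1.0 (SE 0.26) in KO and 1.20 (SE 0.26) in WT on the log2 scale.

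The cytosolic ribosomal protein genes, 52 measured, had fewer stage calls. In KO 7 fell and 1 rose (median -0.21), and in WT 11 fell and 1 rose (median -0.19). Of 65 genes for respiratory chain and ATP synthase subunits, 19 fell and 4 rose in KO (median -0.31), and 25 fell and 7 rose in WT (median -0.36). Between KO and WT round spermatids 1 cytosolic ribosomal gene was higher and 2 lower, and 3 respiratory chain genes were higher and 5 lower. That is 5.77% and 12.3% called, against 14.9% of all features. The differences between these lists and the mitochondrial ribosomal genes were not tested.

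Promoter windows of 250 bases before to 50 bases after the start, from RefSeq (GRCm38.p6), were matched for 67 of the 76 members and searched on both strands. The NRF1 sequence, GCGC then any base then TGCGC, was found in 13 of the 67 members (19.4%) and in 7.17% of 17491 protein-coding genes. The ETS sequence CCGGAAG was found in 26 members (38.8%) and 12.9% of genes, and the YY1 sequence AANATGGCG in 11 members (16.4%) and 3.64% of genes. ETS and YY1 sequences can share letters. The cAMP response sequence TGACGTCA, known from genes of spermatids, was found in 2 members (2.99%), Mrpl16 and Mrpl49, and in 2.54% of genes. The windows of members held a median of 21 CpG sites, against 13 over all genes. Among members lower in WT round spermatids than in WT spermatocytes 13 of 34 held the ETS sequence and 4 the NRF1 sequence. Of the 6 that were higher, Mrpl18 and Mrps12 held the ETS sequence and Mrpl30 and Mrpl39 the NRF1 sequence, and among the 23 not called 10 held the ETS and 4 the NRF1 sequence. A match is a description of letters, and its use in these cells was not measured.

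Many members start close to a gene transcribed the other way. Of the 67 members 23 (34.3%) had a protein-coding neighbour starting within 1000 bases in the opposite direction, against 8.48% of 17491 genes. Both genes were measured for 17 members, and the WT stage differences of member and neighbour had the same sign in 9 of them. Over all genes with such a neighbour the sign was the same in 497 of 805. Mrpl46 and Mrps11, which face each other at 42 bases, are counted from both sides. Mrpl30 and Mitd1 start 66 bases apart and moved in opposite directions between the WT stages. Mrpl30 rose by 1.09 on the log2 scale and Mitd1, a protein of cell division, fell by 1.17 (adjusted p = 0.00037). In KO round spermatids, against WT round spermatids, Mitd1 had a difference of 0.62 (adjusted p = 0.058) where Mrpl30 had -0.69. Mrps12 and Sars2, the mitochondrial seryl-tRNA synthetase, start 147 bases apart and both rose, by 0.92 and 0.88 between the KO stages and by 0.71 and 0.57 between the WT stages. Mrps5 and Zfp661, 332 bases apart, both fell, with differences of -0.72 and -1.72 in KO and of -1.23 and -1.26 in WT. Mrpl2 fell in WT (-1.10) while its neighbour Klc4, a kinesin light chain, rose (0.65, adjusted p = 0.00542).

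**Figure D5:**
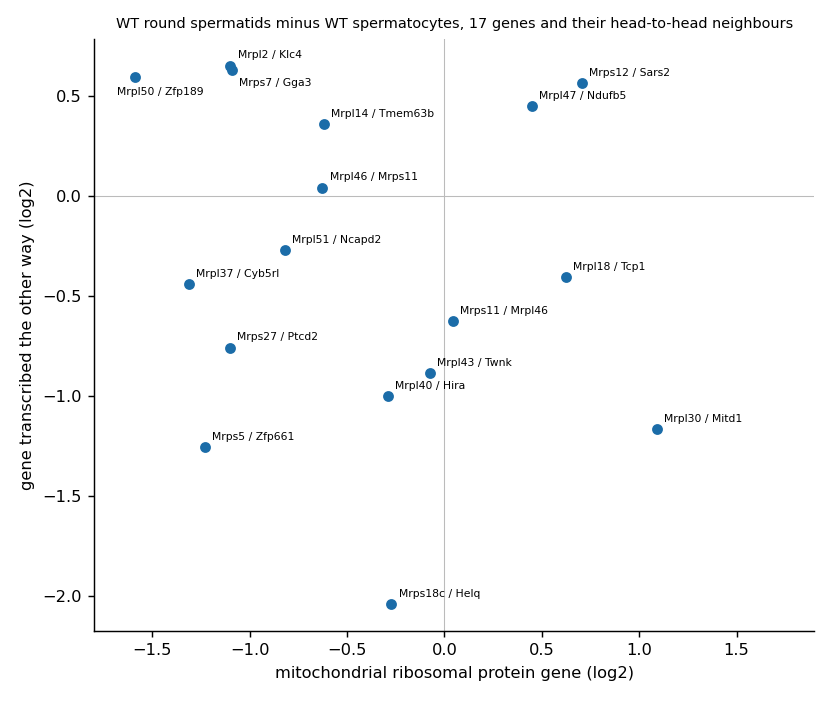
Stage difference in WT, as log2 of round spermatids over spermatocytes, of 17 members (x axis) and of the gene that starts within 1000 bases in the opposite direction (y axis). Each point is labelled member / neighbour, and Mrpl46 and Mrps11 appear from both sides. Points are scattered on both sides of 0, with 9 of 17 on the same side of 0 on both axes, and Mrpl30 / Mitd1 stands at 1.09 and -1.17.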

How the data were processed

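Illumina bead arrays measured total RNA of 24 samples in 4 groups, defined by the labels. Per the file headers, the deposited table holds a raw intensity and a detection p-value for each of 45281 probes on each array. The value table of the authors holds intensities on a linear scale, and what was done to make it is not given in the sources used here. These deposited normalized intensities served as an alternative. The design text of the series speaks of a knock down of Nut, the labels of a KO. Slides and scan dates are not given in the sources used here.

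Raw intensities were background-corrected with detection p-values, quantile-normalized over 24 arrays and turned into log2 values (limma 3.58.1, R 4.3.3, neqc, offset 16), starting from the deposited intensity columns. Probes with a detection p-value under 0.01 on at least 3 of 12 direct arrays were kept (17401). One probe per gene, of highest mean, and 2629 unnamed probes made 12705 features. Differences are on the log2 scale and were fitted with limma over 4 groups and 12 direct arrays (lmFit, eBayes, 8 residual degrees of freedom), with Benjamini-Hochberg adjustment over all features and a threshold of 0.05. The number of arrays limits the precision. In simulated data of 12705 features for KO against WT round spermatids 200 features were changed, 50 at each size. There 0% of log2 changes of 0.5, 46% of changes of 1, 84% of changes of 2 and 100% of changes of 4 were recovered. Of the calls 10.2% were false. The real comparison called 1890 features. Benjamini-Hochberg adjustment depends on how many features change, so the simulated rates need not hold for the real comparison.

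Named members were those called between genotypes, the 8 largest called rises and falls between stages, the brightest and dimmest 3, those not measured, those with probes of opposite sign and those nearest the threshold. From other lists, genes called between genotypes were named, and further genes (Mrpl3, Mrpl23, Mrps35, Mrpl2, Mtif2, Gfm2, Mrrf, Nrf1, Gabpb1 and the neighbours of members) were chosen after their values were seen. Cytosolic ribosomal and respiratory chain genes were chosen by symbol. Members and lists were chosen with earlier results of these data known. Labels tie both stages of a number and genotype to 1 fractionation, and between KO and WT only the number is shared. Deviations from the group means of same-numbered stage pairs correlated at -0.20 to 0.41. Alternatives covered scaling, offset, filter, probes, blocks, mixed arrays and each array left out. Of probe annotation symbols, 76 members matched RefSeq, which holds 78 coding genes of these symbols.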

Additional observations from a re-analysis of the deposited data

Results flagged for a closer look

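The effect of the KO on Aars2, the mitochondrial alanyl-tRNA synthetase, differed between the stages by the test of that difference. KO minus WT was -1.49 (SE 0.20) in round spermatids on the log2 scale, where the arrays read 7.73, 7.77 and 7.21 in KO against 8.81, 9.10 and 9.26 in WT. In spermatocytes they read 7.22, 7.41 and 7.67 in KO against 7.53, 7.29 and 7.32 in WT. The difference of the 2 effects was -1.54 (SE 0.29, limma adjusted p = 0.0219). No member of the mitochondrial ribosome passed this test. Of 71 members 13 had an unadjusted p under 0.05, as did 1895 of 12705 features.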

How the results depend on the processing

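The number of members called between KO and WT round spermatids depended on the settings. It was 4 in the analysis reported, and 9 (7 higher, 2 lower) with the deposited normalized intensities and without the detection filter. It was 8 with an offset of 50 or with the compared groups fitted alone, and 15 with mixed arrays. With a replicate block it was 3, and with 1 array left out 0 to 5. Of all features, mixed arrays called 18.6% higher and 13.3% lower in KO round spermatids, against 6.89% and 7.99% in the analysis reported. Under cyclic loess scaling the median of members in that comparison was -0.11, while that of all features was -0.02, a shift of all genes by more than 0.1. Mrpl49 changed sign with the mean of all probes (-0.17), and its adjusted p was 0.0552 with the replicate block and 0.0795 with cyclic loess. Mrpl50 had an adjusted p of 0.0681 with cyclic loess. The calls of Mrpl30 and Mrps21 were lost in 4 of 16 alternatives each, all of them with an array left out (adjusted p = 0.0605 to 0.0997 and 0.0572 to 0.0887). Between KO and WT spermatocytes the mixed arrays gave 57 members (median -0.85), and leaving out arrays gave 0 with medians of -0.35 to -0.13. For the difference of the KO effect between the stages, 2 members were called with the deposited intensities, 1 without the filter, 1 with an offset of 50, 44 with mixed arrays (median 0.80) and 0 with any array left out (medians 0.16 to 0.36). Its median was 0.037 with cyclic loess. The WT stage count stayed between 40 and 48 with an array left out (medians -0.74 to -0.56) and was 48 with the replicate block. Its median was -0.44 with cyclic loess, where all features had 0.09. The KO stage count was 24 to 35 with an array left out (medians -0.40 to -0.21), 32 with the replicate block and 40 with mixed arrays (30 higher, 10 lower, median 0.20). The replicate block changed no other call of a named member between KO and WT round spermatids. The cause of these shifts was not tested. Other counts in this section are given without the share of all features called under the same setting. They do not show a change particular to the members.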
